A study of Homo sapiens with 12 samples.

Results

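The 10 genes described here are HIF1A and its partner ARNT, the prolyl hydroxylases EGLN1 and EGLN3, and 6 genes that hypoxia is known to induce, VEGFA, ADM, CA9, SLC2A1, BNIP3 and NDRG1. They were picked by name, and all 10 were found among the 20212 protein-coding genes of the count table. Of the 10, 8 had enough ribosome footprints to be tested, while CA9, with 2 footprint reads over all libraries, and EGLN3, with 9, did not. The cells were PANC-1, an established human pancreatic cancer line, labelled as pancreatic duct, and no gene was modified in them. They were treated for 60 min either with DMSO, the vehicle, or with 50 nM rapamycin, an inhibitor of the mTORC1 kinase complex. Each treatment had 3 cultures of this single line, called biological replicates in the design, and each culture gave 1 library of ribosome-protected fragments (RF) and 1 of total RNA, so that there were 12 libraries. No group of cells was kept in low oxygen, and no protein was measured in these files.

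HIF1A is the oxygen-controlled subunit of the transcription factor HIF-1 and ARNT its constant partner. In oxygen, the EGLN prolyl hydroxylases mark HIF1A protein for binding by the VHL ubiquitin ligase, and the protein is degraded; when oxygen falls, HIF1A accumulates, pairs with ARNT and binds hypoxia response elements, whose core letters are ACGTG or GCGTG. Its targets bring blood vessels (VEGFA, ADM), glucose (SLC2A1), control of pH (CA9) and mitochondrial turnover (BNIP3), and include EGLN1 and EGLN3, which feed back on the pathway. mTORC1 is known as a regulator of HIF1A synthesis in several cell types, and mRNAs that depend most on mTORC1 for translation often begin with a C followed by a run of pyrimidines, the TOP motif.

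To compare the genes' own starts with these motifs, the first bases of the most abundant coding isoform were read from GRCh37, the build that the counts use. None of the 9 genes read began with C and at least 4 more pyrimidines, and the sequence of NDRG1 was not read. Of 12973 tested genes with a coding isoform in the annotation, 4.15% began in this way. These are annotated starts, so a start that PANC-1 cells use elsewhere would not be seen.

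Both strands were then searched for ACGTG from 250 bases before to 50 bases after each start. EGLN1, CA9 and BNIP3 held it, against 25.5% of the 12973 starts. The letters are shown in capitals below because these 3 are the genes of the group with the ACGTG core in this window. They lie at chr1:231558029-231558058 on the minus strand for EGLN1, chr9:35673895-35673924 on the plus strand for CA9 and chr10:133795544-133795573 on the minus strand for BNIP3.
EGLN1: gggccgtggtgtACGTGcagagcgcgcaga
CA9: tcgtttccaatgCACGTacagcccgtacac
BNIP3: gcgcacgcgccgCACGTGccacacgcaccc
In CA9 the core was on the opposite strand, and in BNIP3 the capitals hold it on both strands, overlapping. With GCGTG also allowed, 61.1% of all starts matched, as did HIF1A, VEGFA, ADM, SLC2A1, EGLN1 and CA9 with 1 match each and BNIP3 with 6 over both strands, while ARNT and EGLN3 had none. A match describes these letters and is no evidence of binding.

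The RF counts summed to 278835 to 1574723 reads per library, and the smallest RF libraries were rapamycin replicate 3 and DMSO replicate 1 with 303220. The total RNA counts summed to 78081241 to 94293744. Values below are counts scaled to library size (CPM), for which TMM factors of edgeR were computed apart for RF and RNA. A count of 0 allows up to 3 counts, equal to 1.91 to 10.8 CPM without TMM in RF and at most 0.0384 in total RNA, for counting error only. The biological coefficient of variation was 54.9% in RF and 5.31% in total RNA. The total RNA libraries of DMSO replicates 1 and 2 stood apart, with reads on 16840 and 16858 genes against 19751 to 19847 in the other 4, so the fitted TE values of the 8 tested genes are also given without them. Of the duct markers, KRT8, KRT18 and KRT19 had 1326 to 1765 FPKM (fragments per kilobase of transcript, scaled to library size), while CFTR, also a duct marker, was at 0.122 FPKM or less and listed at 0 in 2 libraries. Markers of acinar, islet, fibroblast and endothelial cells summed to at most 1.80 FPKM per list, and of the leukocyte markers CD68 had 69.0 to 88.3 FPKM while PTPRC was at 0.215 or less.

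Total RNA levels placed the genes in a clear order, here per length and as mean FPKM over the 6 libraries. ADM, which encodes the vasodilator peptide adrenomedullin, was highest with 117 FPKM, followed by BNIP3 with 72.5, HIF1A with 53.3, VEGFA with 42.8 and EGLN1 with 21.8. SLC2A1 with 16.5 FPKM and ARNT with 15.3 came next, and NDRG1 with 4.20, EGLN3 with 2.56 and CA9 with 0.168 were lowest. Only SLC2A1 and ARNT overlapped as neighbours in this order; every other gene's lowest library was above the highest of the next. ADM stood at percentile 95 of the tested genes and HIF1A at 87.3, while CA9, often used as a marker of hypoxic tumour tissue, stood at 12.7.

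**Figure D1:**
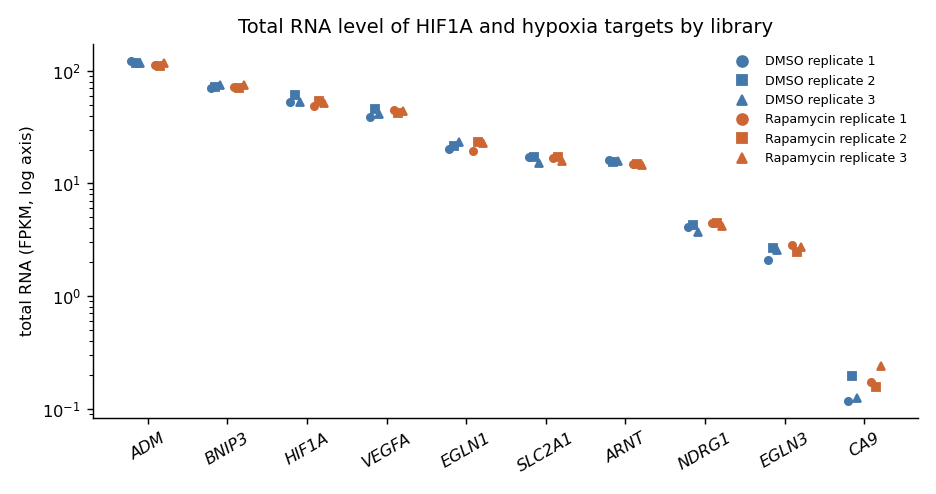
Total RNA level in FPKM on a log axis for each of the 10 genes, with 1 point per library, colour for treatment and shape for replicate. ADM lies at 110 to 122 FPKM and CA9 at 0.117 to 0.237, and within each gene except ARNT and ADM the DMSO and rapamycin points overlap.

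To ask whether rapamycin altered the translation of these mRNAs, translational efficiency (TE), the ratio of RF to total RNA, was compared between treatments by edgeR's quasi-likelihood test over all 12 libraries. None of the 8 tested genes passed an adjusted p of 0.05 in TE, and neither did any other of the 13329 genes tested (0%). At an unadjusted p under 0.05 in edgeR there were 2 of the 8, VEGFA higher and ARNT lower, against 12.6% of all genes. RF and RNA libraries of a culture come from the same cells, and this test had no term for culture. With such a term, VEGFA and ARNT were still under an unadjusted p of 0.05 in edgeR. So were 287 genes lower and 188 higher in all, against 856 and 823 without the term. TE per culture did not overlap between treatments in 3 of the 8, VEGFA and ADM higher and ARNT lower, against 11% of all genes. DESeq2's Wald test passed 2 of the 8, VEGFA and ADM, both higher with an adjusted p of 0.00473. It passed 9.31% of the 13279 genes to which it gave a p-value. Over the 8, the TE values had a median log2 fold change of 0.15, against -0.06 over all genes tested. With 8 genes, these counts are a description.

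Footprints and RNA were also tested alone. In RF, edgeR passed none of the 8 and none of all genes (0%), DESeq2 passed none of the 8, and ARNT and VEGFA were under an unadjusted p of 0.05, against 3.68% of all genes. The RF values of 3 of the 8, ARNT, VEGFA and ADM, did not overlap between treatments, against 9.46% of all genes. In total RNA, edgeR passed none of the 8 and none of all genes (0%), DESeq2 passed none of the 8, and ARNT alone was under an unadjusted p of 0.05 and alone did not overlap, against 5.82% and 14.8% of all genes. The fitted log2 fold changes in total RNA lay between -0.08 for ARNT and 0.08 for NDRG1.

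**Figure D2:**
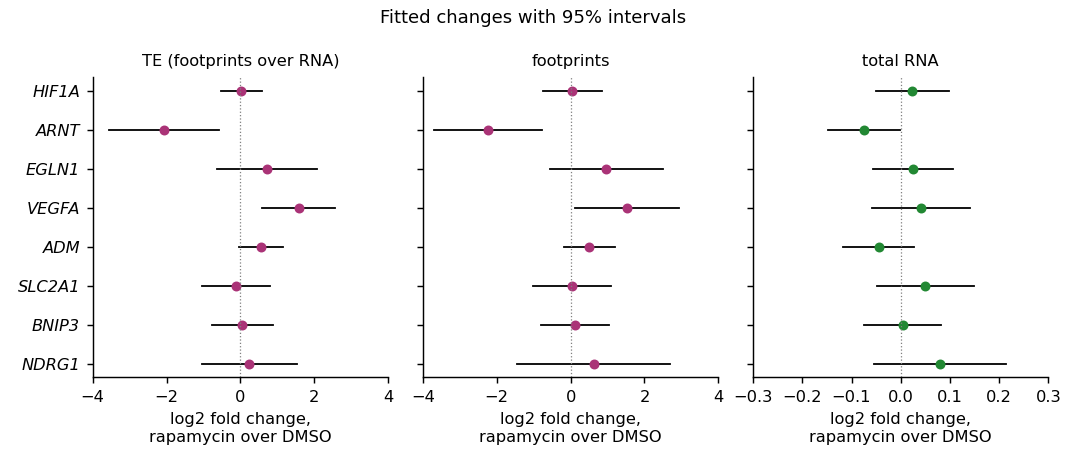
Log2 fold change of rapamycin over DMSO for the 8 tested genes in TE, in RF and in total RNA, as points with 95% intervals from edgeR (the total RNA panel has a narrower axis). VEGFA lies at 1.57 and ARNT at -2.07 in TE, and all total RNA values lie within 0.08 of 0.

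The HIF1A mRNA carried a nearly equal share of footprints in both treatments. HIF1A (ENSG00000100644, chr14:62162231-62214977, plus strand) had 26, 41 and 102 RF reads in DMSO replicates 1, 2 and 3, and 74, 55 and 24 in rapamycin replicates 1, 2 and 3. Scaled to library size, these were 79.6, 51.4 and 69.1 CPM in DMSO and 61.2, 66.2 and 79.4 CPM in rapamycin. All 3 rapamycin values lay within the range of the DMSO values. Total RNA was 167 ± 4.08 CPM in DMSO and 170 ± 4.31 in rapamycin (SD, n = 3 each), and the treatments overlapped. The fitted log2 fold change in TE was 0.02, with a 95% interval from -0.54 to 0.58 and an adjusted p of 0.985 in edgeR. Its sign was not stable, and leaving out 1 culture at a time gave -0.14 to 0.13. The sign in total RNA also depended on the source, with 0.02 from the counts and -0.10 from log2(FPKM + 1) in limma-trend. HIF1A shares 133 exon bases with the antisense RNA HIF1A-AS1 and 299 with HIF1A-AS3, and the strand setting of the counting is not given in the sources used here. A further 148 exon bases are shared with a noncoding RNA on the same strand.

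ARNT, the partner subunit of HIF1A, had the most negative fitted difference in TE of the group. ARNT (ENSG00000143437, chr1:150782189-150849184, minus strand) had 14, 91 and 30 RF reads in DMSO and 18, 13 and 1 in rapamycin. These were 42.9, 114 and 20.3 CPM in DMSO and 14.9, 15.7 and 3.31 CPM in rapamycin. Every rapamycin culture was below every DMSO culture, but DMSO replicate 2 was far above the other 2 DMSO cultures and the last rapamycin value rests on 1 read. Total RNA was lower by a small amount, with 70.7, 73.2 and 73.0 CPM in DMSO and 68.8, 67.7 and 69.2 in rapamycin. The log2 fold change was -2.24 (SE 0.69) in RF and -0.08 (SE 0.03) in total RNA. In TE it was -2.07 (SE 0.69), with a 95% interval from -3.56 to -0.59, an unadjusted p of 0.00971 and an adjusted p of 0.26 in edgeR. Without DMSO replicate 2 it was -0.80, and without DMSO replicate 3 it was -2.64 with an adjusted p of 0.0236 in edgeR. In that last fit 331 genes passed lower and 65 higher of 12461, against 0 with all cultures. With a term for culture, the TE value in edgeR was -1.89 (SE 0.75, unadjusted p = 0.0258). The direction was the same in all 15 alternatives, and the size depended most on DMSO culture 2.

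The hydroxylase EGLN1 (PHD2), the main oxygen sensor of the pathway in most tissues, varied too much between cultures for a difference to be seen. EGLN1 (ENSG00000135766, chr1:231499497-231558033, minus strand) had 7, 8 and 31 RF reads in DMSO and 13, 23 and 21 in rapamycin. These were 21.4, 10.0 and 21 CPM in DMSO and 10.7, 27.7 and 69.5 CPM in rapamycin. Rapamycin replicate 3 was the highest and replicate 1 was among the DMSO values, so the treatments overlapped. The log2 fold change in TE was 0.71 (SE 0.63, adjusted p = 0.684 in edgeR), and it was 0.08 without rapamycin replicate 3 and 1.29 without replicate 1. EGLN1 shares 3004 exon bases with another protein-coding gene on the same strand in the later annotation used here, which the count table does not list. EGLN3 (PHD3, ENSG00000129521, chr14:34393433-34931980, minus strand), a hydroxylase that hypoxia strongly induces, had 1, 1 and 1 RF reads in DMSO and 2, 4 and 0 in rapamycin. No difference in footprints was detectable at this depth. Its total RNA was 5.67 ± 0.48 CPM in DMSO and 5.99 ± 0.54 in rapamycin (SD, n = 3 each), and the treatments overlapped.

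VEGFA and ADM, which encode secreted factors acting on blood vessels, had more footprints for the size of the library (CPM) in every rapamycin culture than in any DMSO culture. VEGFA (ENSG00000112715, chr6:43737921-43754224, plus strand) had 3, 11 and 17 RF reads in DMSO and 67, 20 and 6 in rapamycin. These were 9.18, 13.8 and 11.5 CPM in DMSO and 55.4, 24.1 and 19.9 CPM in rapamycin. The DMSO cultures were close together, though on 3 to 17 reads, and rapamycin replicate 1 was well above the other 2. The lowest rapamycin value rests on 6 reads and the highest DMSO value on 11. Total RNA was 98.6, 112 and 105 CPM in DMSO and 108, 109 and 107 CPM in rapamycin, so the RNA overlapped between treatments. The log2 fold change was 1.53 (SE 0.67) in RF and 0.04 (SE 0.04) in total RNA. In TE it was 1.57 (SE 0.46), about 2.98-fold, with a 95% interval from 0.59 to 2.55. The unadjusted p was 0.00391 and the adjusted p 0.231 in edgeR, so the difference did not pass over all genes, although it did by DESeq2. With a term for culture, the TE value in edgeR was 1.42 (SE 0.56, unadjusted p = 0.0248). In RF alone VEGFA did not pass by DESeq2. By limma voom with weights by library type, the TE value was 1.44 (SE 0.74, unadjusted p = 0.0721). Without rapamycin replicate 1 the edgeR value was 0.89, and with the other cultures left out in turn it was 1.52 to 1.80. VEGFA shares 188 exon bases with an RNA on the opposite strand.

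ADM (ENSG00000148926, chr11:10326620-10328944, plus strand) had the most footprints of the group, with 36, 49 and 156 RF reads in DMSO and 167, 94 and 42 in rapamycin. These were 110, 61.4 and 106 CPM in DMSO and 138, 113 and 139 CPM in rapamycin. The lowest rapamycin culture was just above the highest DMSO culture, and DMSO replicate 2 was the lowest of all 6. Total RNA went the other way in its means, with 178 ± 2.55 CPM in DMSO and 172 ± 5.08 in rapamycin (SD, n = 3 each), and the treatments overlapped; in FPKM they did not. The log2 fold change in TE was 0.55 (SE 0.28), about 1.46-fold, with a 95% interval from -0.04 to 1.14 and an adjusted p of 0.43 in edgeR. By DESeq2 it was 0.53 with an SE of 0.14, an SE smaller than that of edgeR, and it passed. In RF alone the DESeq2 SE was 0.40, and ADM did not pass. By limma voom with weights by library type, the TE value was 0.57 (SE 0.39, unadjusted p = 0.17). Without DMSO replicate 2 the edgeR value was 0.32. With a term for culture, the edgeR value was 0.58 (SE 0.33, unadjusted p = 0.105).

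**Figure D3:**
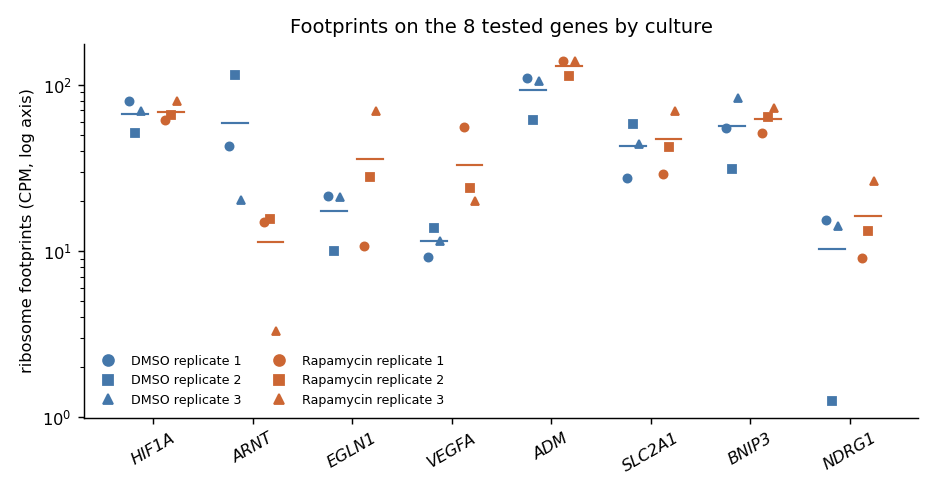
Ribosome footprints in CPM on a log axis for the 8 tested genes, with 1 point per culture, shape for replicate and a bar at each treatment's mean. The rapamycin points of VEGFA (19.9 to 55.4 CPM) and ADM (113 to 139) lie above all DMSO points, those of ARNT (3.31 to 15.7) lie below, and the other 5 genes overlap.

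The other targets did not separate the treatments. SLC2A1 (GLUT1, ENSG00000117394, chr1:43391024-43424564, minus strand), the main glucose carrier of many tumour cells, had 27.6, 57.7 and 44 CPM of RF in DMSO and 28.9, 42.1 and 69.5 CPM in rapamycin. BNIP3 (ENSG00000176171, chr10:133781188-133795471, minus strand), a mitophagy receptor, had 55.1, 31.3 and 83.3 CPM in DMSO and 51.3, 63.8 and 72.8 CPM in rapamycin. NDRG1 (ENSG00000104419, chr8:134249418-134314265, minus strand), a stress-induced gene linked to differentiation, had 15.3, 1.25 and 14.2 CPM in DMSO and 9.10, 13.2 and 26.5 CPM in rapamycin. In NDRG1 the value of DMSO replicate 2 rests on 1 read. The log2 fold change in TE was -0.12 (SE 0.43) for SLC2A1, 0.06 (SE 0.39) for BNIP3 and 0.24 (SE 0.60) for NDRG1. The 95% intervals were -1.04 to 0.80, -0.77 to 0.88 and -1.03 to 1.52, and each held the value fitted for ADM. The sign of all 3 turned when single cultures were left out. For SLC2A1, the difference of the mean log2 TE per culture was 0.04, of the other sign than the fit. SLC2A1 shares 497 exon bases with a noncoding RNA on the opposite strand. NDRG1 shares 753 with a noncoding RNA on the same strand. BNIP3 has 44 annotated pseudogenes, and reads that fit a copy equally well were left out by the authors' use of unique alignments, so its level is uncertain.

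CA9 (ENSG00000107159, chr9:35673925-35681156, plus strand), a membrane carbonic anhydrase, had 2 RF reads in DMSO replicate 1 and 0 in the other 5 RF libraries. Its total RNA counts were 27, 27 and 41 in DMSO and 33, 39 and 56 in rapamycin, or 0.288 to 0.463 and 0.367 to 0.645 CPM. The treatments overlapped, and a difference in TE was not detectable at this depth. CA9 shares 571 exon bases with ARHGEF39, a gene on the opposite strand that is in the same table, and reads from the 2 cannot be told apart there without a strand setting.

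Leaving out the 2 DMSO total RNA libraries that stood apart left VEGFA, ARNT and ADM nearly where they were. The log2 fold change became 1.54 for VEGFA, -2.11 for ARNT, 0.56 for ADM, 0.88 for EGLN1, -0.00131 for HIF1A, -0.09 for SLC2A1, 0.14 for BNIP3 and 0.57 for NDRG1. Only HIF1A changed sign. All adjusted p-values in edgeR were then above 0.99, with fewer RNA libraries in the fit.

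**Figure D4:**
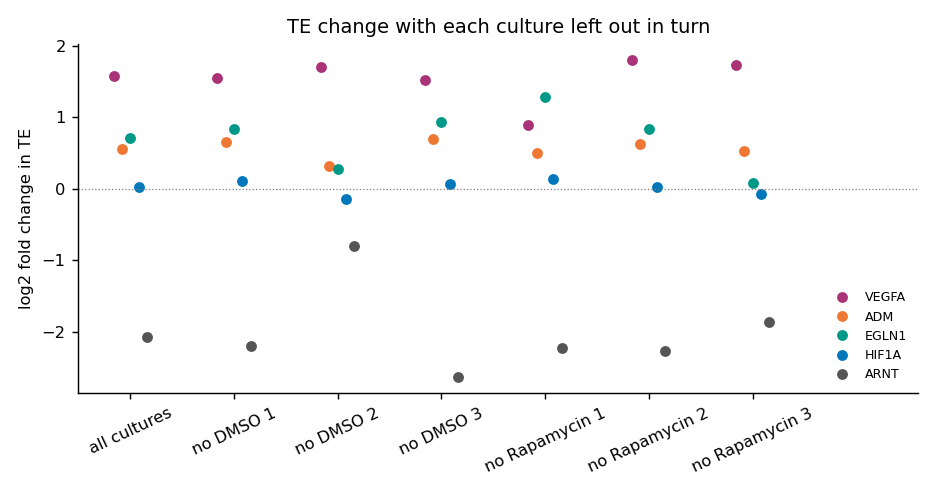
Log2 fold change in TE of VEGFA, ADM, EGLN1, HIF1A and ARNT from edgeR, with all cultures and with each culture left out in turn. VEGFA stays between 0.89 and 1.80 and ARNT between -2.64 and -0.80, while HIF1A crosses 0.

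The log2 TE per culture, the log2 ratio of RF to RNA CPM with a prior count of 2, showed how uneven the group was. VEGFA was at -3.09, -2.78 and -2.92 in DMSO and at -0.90, -2.04 and -2.27 in rapamycin. ARNT was at -0.64, 0.67 and -1.68 in DMSO and at -1.99, -1.90 and -3.59 in rapamycin. ADM was at -0.67, -1.45 and -0.73 in DMSO and at -0.31, -0.53 and -0.32 in rapamycin. In all 3 the treatments did not overlap, and the two-sided exact permutation test over cultures gave p = 0.1, the smallest that 3 against 3 allows. The gaps were narrow. In RF the nearest rapamycin and DMSO cultures of VEGFA had 19.9 CPM on 6 reads and 13.8 on 11. For ADM these were 113 CPM on 94 reads and 110 on 36, and for ARNT 15.7 on 13 and 20.3 on 30. Such gaps are within counting error. HIF1A was at -1.29 ± 0.29 in DMSO and -1.26 ± 0.21 in rapamycin (SD, n = 3 each), and the difference was smaller than this spread. For 2 of the other genes, EGLN1 and NDRG1, the means differed by 0.65 and 0.68 with overlapping cultures.

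Ranked against the log2 TE of all tested genes, VEGFA was among the lowest in DMSO. The mean log2 TE of VEGFA was at percentile 2.63 in DMSO and 15.4 in rapamycin, in the lower part of the genes in both. In the same order, ADM was at percentile 37.6 and 52.4, HIF1A at 28.1 and 26.6, and EGLN1 at 10.1 and 21.3. ARNT was near the middle in DMSO, at percentile 49, and at 4.79 in rapamycin. SLC2A1 was at percentile 57.8 and 57.6, BNIP3 at 36.6 and 41.6, and NDRG1 at 61.7 and 72.1. Reads were counted over all exons, and the coding part takes 25.2% of the main ADM isoform, 29.5% of that of EGLN1, 31.5% of that of VEGFA and 62.8% of that of HIF1A. The part of untranslated sequence in these ranks was not tested.

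Isoform FPKM showed which transcripts carried these levels. BNIP3 had nearly all its signal in BNIP3-201, with 98.9% in both treatments. The main SLC2A1 isoform (ENST00000426263) held 78.6% ± 2.86 in DMSO and 83.0% ± 1.70 in rapamycin (SD, n = 3 each). VEGFA was spread over 25 isoforms, and the largest, VEGFA-205, held 29.5% ± 4.03 in DMSO and 26.1% ± 1.86 in rapamycin. HIF1A-202 held 38.9% ± 6.74 of HIF1A in DMSO and 43.1% ± 3.82 in rapamycin, a difference smaller than the SD in DMSO. For EGLN1, 56.4% of the DMSO signal was in EGLN1-202, an isoform with no annotated coding sequence. These shares are estimates from reads that isoforms have in common, and they were not tested.

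Beyond the 10 genes, 15 genes that control HIF were tested, among them the other HIF subunits, the VHL ligase and the coactivators. None passed in TE, RF or total RNA in edgeR, and DESeq2 passed 1, EGLN2, higher in TE, against 9.31% of all genes. In RF and in total RNA, 0 of the 15 were under an unadjusted p of 0.05 in edgeR, against 3.68% and 5.82% of all genes. In TE, 7 had a fitted value below 0 and 8 above, with a median of 0.11, and only ARNT2, a relative of ARNT, was under an unadjusted p of 0.05, against 12.6% of all genes. ARNT2 had 1, 0 and 1 RF reads in DMSO and 10, 2 and 1 in rapamycin, a log2 fold change in TE of 2.83 (SE 1.13, adjusted p = 0.331 in edgeR). It lies opposite to ARNT in sign, but on 15 reads in all. The next smallest p-values were those of EGLN2, another hydroxylase, at 1.29, and TCEB2 (elongin B), at 0.20, and on the lower side SIAH2, a ligase for hydroxylases, at -1.03, CUL2 at -0.44 and VHL at -0.52, the last 2 both subunits of the ligase that marks HIF1A. EGLN2 (SE 0.69) had 4, 0 and 25 RF reads in DMSO and 43, 14 and 7 in rapamycin. SIAH2 (SE 0.68) had 0, 13 and 30 in DMSO and 2, 14 and 2 in rapamycin. CUL2 was the only gene of this list whose TE did not overlap between treatments, against 11% of all genes. TCEB2 also had the highest total RNA of the list, 437 FPKM.

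A wider list of 46 other hypoxia targets had 45 genes in the count table, 37 of which were tested, and PGK1 was not analysed here. None of the 37 passed in TE, RF or total RNA in edgeR, while DESeq2 passed 2, PDK1 and ERO1L, both higher in TE, against 9.31% of all genes. Under an unadjusted p of 0.05 in edgeR were 2 of the 37 in RF and 1 in total RNA, all higher, against 3.68% and 5.82% of all genes. In TE, 21 had fitted values below 0 and 16 above, with a median of -0.03, and 3 were under an unadjusted p of 0.05, all higher, against 12.6% of all genes. PDK1, a mitochondrial kinase that inhibits pyruvate dehydrogenase, had 3, 1 and 6 RF reads in DMSO and 35, 14 and 3 in rapamycin. In CPM these were 9.18, 1.25 and 4.06 against 28.9, 16.9 and 9.93, so the treatments did not overlap. The highest DMSO value and the lowest rapamycin value rest on 3 reads each, so this gap is within counting error. Its log2 fold change in TE was 2.45 (SE 0.56, unadjusted p = 0.000641, adjusted p = 0.224 in edgeR). HILPDA, a lipid droplet protein, was at 1.56, and HMOX1, the haem oxygenase, at 0.65. HILPDA had only 2, 0 and 17 RF reads in DMSO and 34, 12 and 1 in rapamycin. The smallest p-values on the lower side belonged to TMEM45A at -2.88, INSIG2 at -1.38 and PFKFB3 at -1.22, none under 0.05. These rest on few reads. TMEM45A (SE 1.38) had 0, 13 and 3 in DMSO and 0, 2 and 0 in rapamycin. INSIG2 (SE 0.79) had 1, 21 and 7 against 6, 2 and 3, and PFKFB3 (SE 0.78) 6, 1 and 37 against 4, 13 and 0. GAPDH had the highest total RNA of this list, 2119 FPKM, with a log2 fold change in TE of -0.16 (SE 0.13).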

How the data were processed

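Total RNA and ribosome-protected fragments (RF) of PANC-1 cells, 3 cultures with DMSO and 3 with 50 nM rapamycin for 60 min, were grouped by their labels. The authors deposited raw counts of uniquely aligned reads per protein-coding gene, made with HISAT2 on GRCh37 and featureCounts on exons; RF reads had been trimmed and freed of ribosomal RNA. The authors also deposited FPKM of genes and isoforms for total RNA, from Cufflinks 2.2.1 per the labels. The columns of the authors' own TE comparison (ratios, fold changes and p-values) were not used.

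Counts were tested in edgeR 4.0.16 (R 4.3.3) by the robust quasi-likelihood test, with TMM within each library type, for genes with at least 10 counts summed over RF and at least 10 over RNA. The TE test was the library type by treatment term of 1 model over all libraries, and each library type was also tested by itself. P-values were adjusted by Benjamini-Hochberg over the 13329 genes. Alternatives used DESeq2 1.42.0, limma 3.58.1, other filters, scalings and blocks, and each culture left out; the fit without DMSO RNA libraries 1 and 2 was added after seeing the data. The tests were tested on simulated counts. Annotation was GENCODE lifted to GRCh37, later than the authors' own.

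The members and lists were chosen with earlier results of these data known. Named are all 10 members and, of each list, the genes called, the up to 3 with the smallest unadjusted p in each direction in TE, and the one with the highest mean FPKM. Within each list, symbols with 2 identifiers were resolved by the reference names. P-values of RF alone and of total RNA alone measure the spread between the cultures. The main TE test in edgeR had no term for culture. It fitted a common dispersion for the RF and RNA libraries of each gene, with a biological coefficient of variation of 24.4%. Its SE can therefore lie below that of RF alone, which for VEGFA was 0.67 against 0.46 in TE. The TE fit of DESeq2 had the same design and 1 dispersion per gene. For VEGFA the DESeq2 SE was 0.75 in RF alone against 0.42 in TE. RiboDiff was not run. A few single items are not reported here.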

Additional observations from a re-analysis of the deposited data

How the results depend on the processing

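No gene of the group passed in edgeR under any other scaling, filter or block in TE, RF or total RNA. In TE, DESeq2's Wald test passed 2 of the 8, with 582 genes lower and 654 higher in all, against 0 by edgeR, and without DMSO replicate 3 edgeR passed 1 of the 8. Leaving out a culture gave 0 to 1 of the 8, 0 to 331 genes lower and 0 to 65 higher in TE. In RF, DESeq2 passed 1 gene lower and 4 higher, no filter beyond 1 count 10 and 10, and leaving out a culture 0 to 1 lower and 0 to 5 higher. In total RNA, DESeq2 passed 4 genes lower and 25 higher, limma-trend on FPKM passed 1 higher with each pseudocount (1 and 0.1) and with no minimum FPKM, and leaving out a culture gave 0 to 4 lower and 0 to 683 higher. The cause of these differences was not tested.

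With the replicate block, 2 genes passed lower and 4 higher in RF, none of them of the group. No gene of the group passed or ceased to pass, but at an unadjusted p under 0.05 in edgeR VEGFA no longer counted in RF, nor ARNT in total RNA. DMSO and rapamycin libraries with the same number did not deviate together: their correlations were -0.24, -0.10 and -0.13 in RF and -0.13, -0.09 and -0.21 in total RNA, so they share only a number. RF and RNA libraries of a culture are the same cells, and a culture block passed 0 genes in TE.

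Signs turned in the cases that follow, all among values that did not pass. In TE, HIF1A was -0.0121 by DESeq2, -0.00131 without DMSO RNA libraries 1 and 2 and -0.058 with TMM over all libraries, and BNIP3 -0.0156 with that TMM. In total RNA, HIF1A was -0.10, -0.11 and -0.10 by limma-trend with a pseudocount of 1, of 0.1 and with no minimum FPKM. Without DMSO RNA libraries 1 and 2, total RNA was -0.0178 for EGLN1, -0.0445 for BNIP3 and -0.0032 for NDRG1, and with no filter -0.0124 for BNIP3. Leaving out a culture gave, in TE, -0.14 to 0.13 for HIF1A, -0.44 to 0.20 for SLC2A1, -0.32 to 0.54 for BNIP3 and -0.22 to 1.12 for NDRG1. In RF it gave -0.12 to 0.18 for HIF1A, -0.30 to 0.32 for SLC2A1 and -0.20 to 0.53 for BNIP3. In total RNA it gave -0.00524 to 0.0874 for VEGFA and -0.0211 to 0.0309 for BNIP3. With a prior count of 0.5, the TE per culture kept its direction in all 10 genes. RF depth limits EGLN3 and CA9 most.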
